A study of Mus musculus with 12 samples.

Results

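RNA sequencing was used to follow the PARP family in mouse monocytes given interferon β (IFNβ), a type I interferon. The members are all genes whose identifier in the deposited tables starts with Parp and a digit. There were 6 of them among the 2038 distinct genes of the tables: Parp3, Parp9, Parp10, Parp11, Parp12 and Parp14. All 6 were in the table of IFNβ against control at 12 h, and none was in the tables of change with time or in the 5-gene table at 24 h. The reference annotation (RefSeq, GRCm38.p6) names 12 such genes, and Parp1, Parp2, Parp4, Parp6, Parp8 and Parp16 are the 6 that no table lists.

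Monocytes were sorted with magnetic beads from mouse bone marrow and cultured in M-CSF at 20 ng/mL in every group; this growth factor supports survival of monocytes and their maturation into macrophages. The 4 groups of 3 samples were M-CSF alone for 12 h, M-CSF with 100 U of IFNβ for 12 h, and the same treatments for 24 h. The labels give no strain, age or genotype, and they do not say whether replicates are separate animals. The p-values therefore cover the spread among these samples only, and that spread may be technical. Levels are given as normalized counts, the scale of the deposited library values.

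PARP proteins transfer ADP-ribose from NAD to other molecules. A few, such as PARP1 and PARP2, build chains and act in DNA repair, while most of the others attach single units or have lost the activity. PARP9 and PARP14 carry macrodomains, which bind ADP-ribose, and PARP11 and PARP12 carry WWE domains, which bind it as well. Several family members are known as interferon-stimulated genes with roles against viruses, and some viruses encode macrodomains that remove the modification.

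Promoter sequences, 250 bases before to 50 after the transcription start, were in the RefSeq table (GRCm38.p6) for 3 of the 6 members: Parp3, Parp11 and Parp12. They were searched on both strands for the core of the interferon-stimulated response element (ISRE), GAAANNGAAA, and for the STAT dimer site known as GAS, TTCNNNGAA. The Parp11 promoter is shown because it held both; the Parp12 promoter is shown because the gene with the largest rise held neither. The capitals mark the matches, written on the strand of the gene.
Parp11 promoter, chr6:127446590-127446889, plus strand: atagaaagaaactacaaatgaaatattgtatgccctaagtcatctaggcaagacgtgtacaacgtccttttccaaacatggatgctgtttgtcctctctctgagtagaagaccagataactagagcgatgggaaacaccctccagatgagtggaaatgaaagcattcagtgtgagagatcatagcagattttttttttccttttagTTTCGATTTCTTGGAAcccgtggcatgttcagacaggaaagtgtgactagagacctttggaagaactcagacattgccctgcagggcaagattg
Parp12 promoter, chr6:39118300-39118599, minus strand: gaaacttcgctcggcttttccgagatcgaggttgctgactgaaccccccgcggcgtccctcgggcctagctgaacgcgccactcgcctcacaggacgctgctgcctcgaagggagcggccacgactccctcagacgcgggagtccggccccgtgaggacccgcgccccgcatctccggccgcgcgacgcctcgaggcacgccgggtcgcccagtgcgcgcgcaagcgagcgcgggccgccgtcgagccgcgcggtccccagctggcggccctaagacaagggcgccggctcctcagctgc

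In the Parp11 promoter the ISRE core was read as TTTCGATTTC, starting 44 bases before the transcription start, and the GAS match TTCTTGGAA began 37 bases before it, so the 2 matches overlap. The second annotated Parp11 start (chr6:127453377-127453676) and the Parp3 promoter held no match to either motif. The Parp12 promoter was rich in G and C, at 73.7% of its bases against 42.0% in the Parp11 promoter shown. An ISRE core was present in 3.44% of all 32851 promoters of this length, in 13.1% of the 860 promoters of genes listed as higher with IFNβ and in 2.11% of the 473 of genes listed as lower. The GAS motif was present in 8.30%, 9.07% and 6.13% of the same sets. Among the 6 unlisted Parp genes, Parp4 held the longer form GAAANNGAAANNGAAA, which contains the core and is present in 0.116% of all promoters. It is shown because it is a match in a family member that the 12 h table does not list, from the promoter chr14:56575369-56575668, plus strand.
Parp4 promoter stretch: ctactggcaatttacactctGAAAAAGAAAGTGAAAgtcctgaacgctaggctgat
Another unlisted gene, Parp16, held a GAS match, TTCAGAGAA, starting 4 bases before the transcription start.
A match describes these letters and shows no binding, and the lack of one says only that these letters are not in the window.

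The 12 h comparison asks what IFNβ did to the family. All 6 listed members were higher with IFNβ, by between 3.21-fold and 11.5-fold in the means, and in each of them every IFNβ library was above every control library. The authors' deposited table listed 8.86% of the genes that its p-values imply were tested, and 5.7% as higher. The 6 members against the 6 unlisted Parp genes are to be read beside that share. Whether the unlisted ones were tested is unknown, and being unlisted does not show that they were unchanged. Among all genes listed as higher, 99.3% had no overlap between the groups, so the lack of overlap is shared with nearly all of them.

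The zinc finger and WWE protein gene Parp12, whose product is known to restrict viruses, had the largest difference. It stood at 2149.7, 1578 and 1434 in the controls, against 22684, 17876 and 18748 with IFNβ. The lowest IFNβ library was thus far above the highest control, and replicate 1 was the highest in both groups. The mean rose from 1721 ± 379 to 19769 ± 2561 (SD, n = 3), a difference of 3.54 ± 0.18 (SE) on the log2(normalized count + 1) scale with limma (adjusted p = 3.55e-08). Parp12 lies on chromosome 6, 39086410 to 39118349, on the minus strand (GENCODE M21, GRCm38).

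Parp14 encodes a large macrodomain protein that attaches single ADP-ribose units and is known as a partner of STAT6. It was at 7497, 6118 and 4528 in the controls, against 51834, 37887 and 45776 with IFNβ. The controls were spread widely, yet the lowest IFNβ library was well above the highest of them. The mean rose from 6048 ± 1486 to 45166 ± 6994 (SD, n = 3), and the log2 difference was 2.92 ± 0.21 (limma, adjusted p = 5.92e-07). The gene lies on chromosome 16, 35832874 to 35871544, on the minus strand.

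Parp9 encodes a macrodomain protein that works in a complex with the ubiquitin ligase DTX3L. It stood at 2247, 2061 and 2001 in the controls, against 11149.7, 9830.1 and 9639 with IFNβ. The spread within both groups was small. The mean rose from 2103 ± 128 to 10206 ± 822 (SD, n = 3), a log2 difference of 2.28 ± 0.15 (limma, adjusted p = 2.91e-07). Parp9 lies on chromosome 16, 35938470 to 35972605, on the plus strand.

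Parp10, which encodes an enzyme that attaches single ADP-ribose units and binds ubiquitin, was at 1819, 1616 and 1546 in the controls, against 11629, 13312 and 10214 with IFNβ. It was the only member whose highest IFNβ library was replicate 2. The mean rose from 1660.2 ± 142 to 11718 ± 1551 (SD, n = 3), a log2 difference of 2.81 ± 0.16 (limma, adjusted p = 7.69e-08). It lies on chromosome 15, 76231174 to 76243441, on the minus strand.

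Parp11, a WWE-domain member that also attaches single units, stood at 776, 785 and 672 in the controls, against 6255, 5584 and 5399.7 with IFNβ. Both groups were tight and far apart. The mean rose from 744 ± 62.8 to 5746 ± 450.4 (SD, n = 3), and the log2 difference was 2.95 ± 0.16 (limma, adjusted p = 4.25e-08). The gene lies on chromosome 6, 127446840 to 127494261, on the plus strand.

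Parp3, known for a role in the repair of DNA double-strand breaks, was at 599, 511 and 546 in the controls, against 2039, 1649.5 and 1619.7 with IFNβ. It had the smallest difference of the 6. The mean rose from 552 ± 44.1 to 1769.5 ± 234 (SD, n = 3), a log2 difference of 1.67 ± 0.18 (limma, adjusted p = 2.37e-05). It lies on chromosome 9, 106470322 to 106476949, on the minus strand. The other repair PARPs, Parp1 and Parp2, are not in the table.

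**Figure D1:**
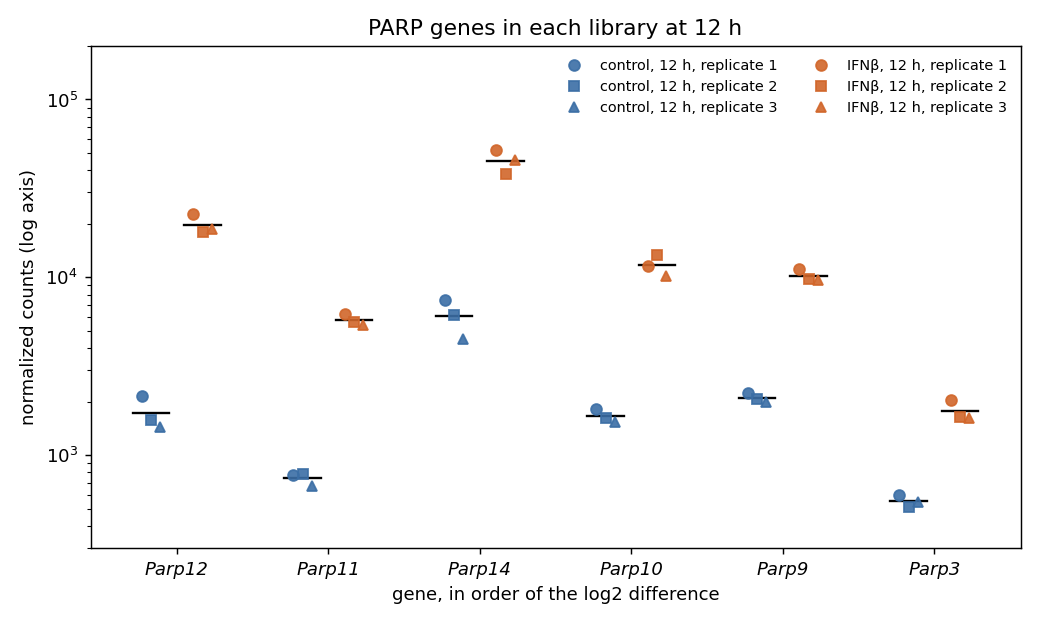
Normalized counts (log axis) of the 6 PARP genes in each library at 12 h, blue for control and orange for IFNβ, with the replicate number as the symbol and a line at the mean of 3. In each gene all IFNβ points lie above all control points, and the groups are furthest apart in Parp12; heights are not corrected for gene length.

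The median log2 difference of the 6 members was 2.87, against 1.97 over the 892 genes listed as higher and 1.350 over all 1388 listed genes. All 6 also met a stricter rule, an authors' adjusted p under 0.01 with a log2 fold change of 1.5 or more. Upward, 3.81% of the genes tested met it. These were 597 of the 892 genes listed as higher, so meeting it was common among listed genes. With limma 6 of 6 passed, as did 93.4% of the genes listed as higher. That share is high because the table holds genes already chosen for a small p-value, so limma here describes these genes and is no second test of the choice. By the authors' log2 fold change the members took ranks 200 (Parp12), 273 (Parp11), 282 (Parp14), 295 (Parp10), 389 (Parp9) and 555 (Parp3) of the 892.

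**Figure D2:**
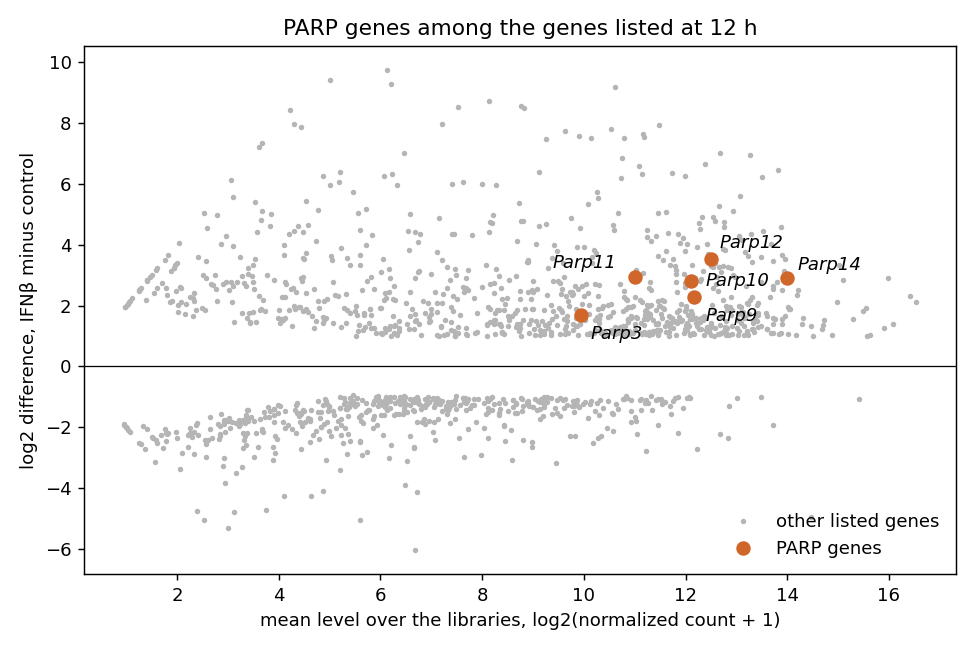
Log2 difference between IFNβ and control at 12 h against the mean level, log2(normalized count + 1), for the 1388 listed genes (grey) with the 6 PARP genes in orange. The differences of the members run from 1.67 to 3.54, within the range of the other genes listed as higher; levels are not corrected for gene length.

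How far the members differed from one another was read from their ratios within each library, which do not depend on the scaling between libraries. Across the 15 pairs, 12 had ratios that did not overlap between IFNβ and control libraries, against 62.1% of the 361675 pairs of genes listed as higher and never at 0. With 3 against 3 an exact permutation test cannot go below 0.1 (two-sided), so the ratios are given as values. The 3 pairs that overlapped were those among Parp10, Parp11 and Parp14. Their log2 ratios moved by 0.03 ± 0.18 (SE; Parp11 over Parp14), 0.10 ± 0.26 (Parp14 over Parp10) and 0.14 ± 0.13 (Parp11 over Parp10).

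Parp12 gained on each of the other 5 members. Its log2 ratio to Parp3 was 1.85, 1.63 and 1.39 in the controls and 3.47, 3.44 and 3.53 with IFNβ, a shift of 1.86 ± 0.13. Its ratios to Parp9, Parp10, Parp14 and Parp11 shifted by 1.26 ± 0.13, 0.72 ± 0.20, 0.62 ± 0.10 and 0.59 ± 0.15. Parp9 lost ground against all members but Parp3, on which it gained 0.60 ± 0.06. Parp10, Parp11 and Parp14 thus lay between Parp12 above and Parp9 and Parp3 below.

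**Figure D3:**
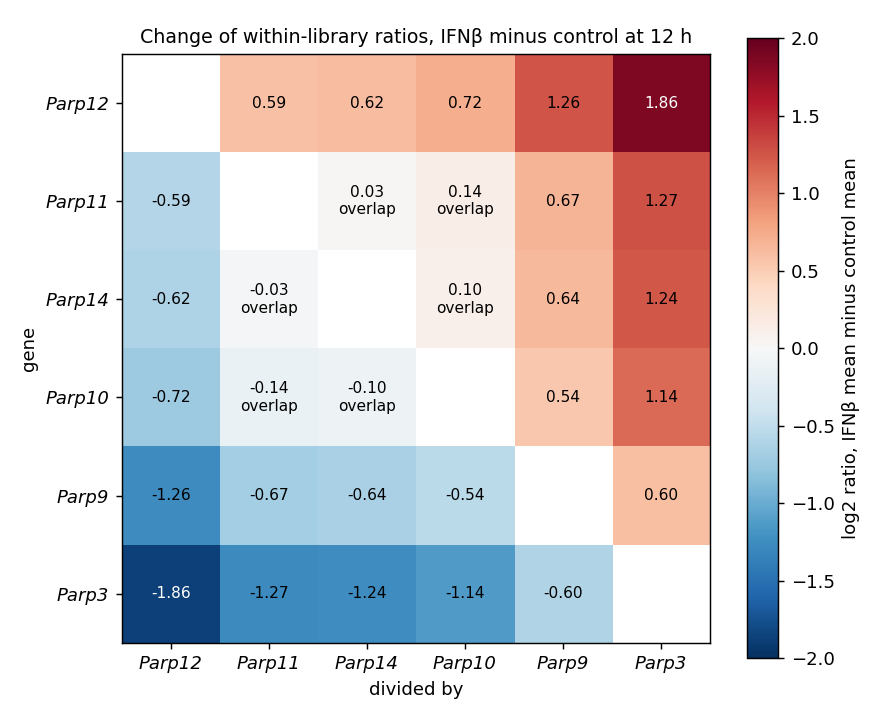
Change in the within-library log2 ratio of each member (row) to each other member (column), IFNβ mean minus control mean at 12 h; "overlap" marks pairs whose libraries overlap between the groups. The largest shift is 1.86 for Parp12 over Parp3, and the only overlaps are among Parp10, Parp11 and Parp14.

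Levels were compared between genes per kb of exon (union of the annotated exons of each gene). In the controls the order was Parp14 (649.9 ± 159.7 normalized counts per kb), Parp9 (432 ± 26.4), Parp12 (431 ± 94.8), Parp10 (388 ± 33.3), Parp3 (149 ± 11.9) and Parp11 (106 ± 8.94; SD, n = 3). The libraries of Parp9 overlapped those of Parp12, and those of Parp12 overlapped those of Parp10, so these neighbours did not differ beyond their spread. With IFNβ the order was Parp12 (4948 ± 641), Parp14 (4853 ± 752), Parp10 (2741 ± 363), Parp9 (2095 ± 169), Parp11 (818 ± 64.1) and Parp3 (478 ± 63.3). Here Parp12 and Parp14 overlapped, and every other pair of neighbours was separate.

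The shares among the 6 listed members shifted accordingly. The 6 unlisted Parp genes have no values here, so the make-up of the whole family is unknown. Of the summed level per kb of the 6 members, Parp12 made up 19.9% ± 1.44 in the controls and 31.0% ± 1.05 with IFNβ (SD, n = 3). Parp9 went from 20.2% ± 1.82 to 13.2% ± 0.32 and Parp3 from 6.99% ± 0.82 to 2.996% ± 0.12. The shares of Parp14 (29.9% ± 3.25 and 30.4% ± 2.72), Parp10 (18.1% ± 1.22 and 17.3% ± 3.08) and Parp11 (4.95% ± 0.48 and 5.14% ± 0.16) each moved by less than the SD of their controls.

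Parp14, Dtx3l and Parp9 lie in a row on chromosome 16. Dtx3l encodes the ubiquitin ligase that partners PARP9, and its start lies head to head with that of Parp9, with 682 bases shared between the genes. Dtx3l was at 4193, 3923 and 3169 in the controls, against 26738, 20246 and 24077 with IFNβ, a rise of 2.66 ± 0.17 on the log2 scale (limma, adjusted p = 2.77e-07). All 3 IFNβ libraries were above the controls. The log2 ratio of Dtx3l to Parp9 was 0.90, 0.93 and 0.66 in the controls and 1.26, 1.04 and 1.32 with IFNβ, so that Dtx3l gained 0.38 ± 0.12 on its neighbour. Their exons share 458 bases on opposite strands, 9.40% of the exonic bases of Parp9, and reads from those bases cannot be told apart because the strand setting is not given in the sources used here.

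Of the 11 distinct protein-coding neighbours of the 6 members, 2 were in the 12 h table, beside 8.86% of all genes tested. The other one besides Dtx3l was the cyclin gene Ccnd2, whose gap to Parp11 is 294646 bases. It stood at 558, 786 and 650.2 in the controls, against 3956, 4769 and 4157 with IFNβ, a rise of 2.70 ± 0.18 (limma, adjusted p = 2.79e-07). Hspbap1 and Kpna1, which flank the chromosome 16 row, were not listed. Shared exons were few for the remaining members. Parp10 shares 205 bases with Plec and Parp14 shares 110 with an unnamed predicted gene, both on the same strand. Parp3 shares 20 bases with Rrp9 on the opposite strand.

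Genes of the 12 h table with the pattern most like each member were found by the distance between log2(normalized count + 1) values centred on each gene's mean over the 6 libraries. The nearest to Parp12 were Ifi204 (0.136), Irgm1 (0.182) and Trim30a (0.198). Those near Parp11 included Ly6c2 (0.190) and Tmem67 (0.229), and nearest to Parp14 were Nlrc5 (0.294), Znfx1 (0.330) and Pik3ap1 (0.357). Parp10 was closest to Il15ra (0.218), Pla2g16 (0.225) and Ccrl2 (0.227), Parp9 to Rnf114 (0.212), Ogfr (0.220) and H2-T23 (0.233), and Parp3 to Nupr1 (0.0963), Slc12a9 (0.135) and Tlk2 (0.150). No member was among the 3 nearest genes of another. The closest pair of members was Parp10 and Parp11, at 0.358. The distance is set mostly by the size of the IFNβ difference, which these genes share by selection.

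Few other genes of ADP-ribose biology were listed at 12 h, and being unlisted does not show that a gene was unchanged. Among 9 further transferase genes, 2 were listed and both were higher, beside 5.7% of all genes tested that were listed as higher. Zc3hav1 encodes PARP13, the zinc finger antiviral protein, which has no transferase activity; it was at 9494, 7909 and 7125 in the controls, against 21258, 17456 and 18811 with IFNβ (log2 difference 1.24 ± 0.17, limma, adjusted p = 2.50e-04). Art3, a surface-anchored relative, was at 12.0, 0.710 and 2.46 in control libraries; the IFNβ libraries held 147, 67.0 and 76.9 (4.44 ± 0.65, limma, adjusted p = 4.38e-04). The control values of Art3 are too few counts for a firm fold.

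Of 12 reader and partner genes only Dtx3l was listed, and of 10 eraser genes only Enpp1, an ectoenzyme that cleaves nucleotides. Enpp1 fell, from 426, 329 and 632 in the controls to 101, 101 and 187 with IFNβ (log2 difference -1.84 ± 0.32, limma, adjusted p = 0.00161). Of 33 genes for the supply and use of NAD, the substrate of PARP enzymes, only Nampt was listed; it encodes the rate-limiting enzyme of NAD salvage. Nampt was at 8012, 8363 and 8902 in the controls, against 23481, 21142 and 21218 with IFNβ (1.38 ± 0.15, limma, adjusted p = 3.55e-05). Of 23 genes for partners of PARP1 and PARP2 in repair only Timeless, whose product binds PARP1, was listed, and its mean rose from 1098 ± 182 to 4761 ± 601 (SD, n = 3; 2.12 ± 0.18, limma, adjusted p = 2.69e-06). The eraser, reader, NAD and repair lists thus held 1 listed gene each, a share near or below the 8.86% of all genes tested. Zc3hav1 and Nampt no longer passed when libraries were set to equal medians (adjusted p = 0.529 and 0.0951).

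Between 12 h and 24 h no PARP gene was listed, either without IFNβ, where 4.08% of the genes tested were listed, or with it, where 3.87% were. Because no member is listed in any comparison that holds 24 h libraries, no library values of the members at 24 h were available here. Neither a fall nor a lasting rise can therefore be read, and whether IFNβ altered their change with time was not tested. Of the related genes, Art3 fell with time under IFNβ, from 133, 59.0 and 68.8 to 14.4, 3.83 and 6.13 (log2 difference -3.35 ± 0.51, limma, adjusted p = 0.00508). Enpp1 rose with time under IFNβ from 116 ± 45.2 to 848 ± 253 (SD, n = 3; 2.88 ± 0.32, limma, adjusted p = 6.58e-04). In the controls it rose from 518 ± 177 to 1386 ± 354 (1.44 ± 0.30, limma, adjusted p = 0.0497; 3.75e-04 with the replicate number as a block). The latter call was lost under 9 of 12 other settings, among them leaving out control replicate 1 or 2 at 12 h, or control replicate 1, 2 or 3 at 24 h (adjusted p = 0.115, 0.191, 0.229, 0.0994 and 0.290). With equal library medians the difference shrank to 0.51 (adjusted p = 1.0). Ido2, an NAD pathway gene, was listed as higher in the controls at 24 h but did not pass limma (20.9 ± 5.52 to 52.8 ± 8.34, SD, n = 3; adjusted p = 0.196). The tables share the 12 h libraries, and whether the time changes differ was not tested.

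Replicate 1 was the highest control for 5 of 6 members and the highest IFNβ library for 5 of 6. Among the 892 genes listed as higher, IFNβ replicate 1 was the highest of its group for 62.7% and control replicate 1 for 43.9%. All 6 rises passed limma with any 1 library left out. Of the 10 monocyte markers fixed for checking the label, the table holds only Ly6c2, which was higher with IFNβ (log2 difference 2.92), and Fn1, which was lower (-4.96), so the cell type could be checked only in part. Markers of other cells moved with IFNβ: of 5 stromal and endothelial markers, the 2 listed ones, Kdr and Cdh5, summed to 248 to 258 in controls and to 13876 to 25512 with IFNβ, and the granzyme genes Gzma and Gzmb, the 2 listed of 10 lymphocyte markers, to 39.9 to 119 and 300.5 to 675. Of 7 dendritic cell markers 4 were listed, Xcr1 as higher (log2 difference 3.996) and Cd209a (-5.07), Itgax (-2.36) and Flt3 (-1.37) as lower; their sum went from 1982 to 2069.9 in controls to 667 to 858 with IFNβ. No B cell, neutrophil or mast cell marker was listed. The part of these markers in the PARP values was not tested, and in such bulk samples a change in the number of cells of a type and in RNA per cell cannot be told apart.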

How the data were processed

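RNA from 12 cultured monocyte samples was sequenced. Per the submitters' processing notes the tools were bcl2fastq, HISAT2 2.2.1 and edgeR 3.3.3 on GRCm38; for the counter, annotation and strand setting nothing is given in the sources used here. Values were taken from 3 of the authors' deposited tables, each with a signal for 6 libraries. The signal was read from the values as normalized counts scaled within a table. Per the file headers, these tables also give the log2 fold change with its raw and adjusted p-value. The table of IFNβ against control at 24 h lists 5 genes and was used only to count genes and members. Tested on the files, every gene listed in the 3 tables has an adjusted p under 0.05 and a log2 fold change of 1 or more in size. Depth is unknown. From raw and adjusted p, 15661, 15822 and 15541 genes had been tested. All library columns were mapped to samples by name.

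The planned count test was not used because the values are normalized. Instead limma 3.58.1 (R 4.3.3) was fitted to log2(value + 1) over all rows of a table, with a variance trend, p-values adjusted (Benjamini-Hochberg) for the number of genes implied, and was tested on simulated data. The members, the companion gene lists and the tests were chosen with earlier results of these data known. Named genes were all members, listed companions, the nearest protein-coding gene on each side, and the 3 genes of most like pattern, leaving out unnamed predicted genes; 1 gene chosen by this rule is not reported here. Same-numbered control and IFNβ samples deviated together (Pearson's r over 1275 genes, themselves no replicates, of 0.347, 0.203 and 0.166), while different numbers gave -0.308 to 0.139. The replicate number may thus pair them, though the labels do not state it. The main limma fits, the SEs of the ratios and the permutation test leave this pairing out, and only the replicate block uses it. Between replicates of a group, the squared difference divided by the sum of the 2 normalized values averaged 47.9 or more. Because depth is unknown and a difference in scale raises this figure, it cannot decide whether 1 library was deposited again. Positions and exon lengths are from GENCODE M21, and Python 3.11.15, pandas 2.3.3, scipy 1.17.1 and matplotlib 3.10.9 were used. Alternatives were the replicate block, a pseudocount of 0.1, no variance trend, a mean of at least 10, equal library medians, array weights, each library left out, and stricter thresholds on the authors' calls.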

Additional observations from a re-analysis of the deposited data

How the results depend on the processing

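All 6 PARP genes were higher with IFNβ and passed limma under each of 12 alternatives, with adjusted p at most 0.00743. Of the 1388 listed genes, between 983 (without IFNβ replicate 1) and 1230 (replicate block) passed under these alternatives. All were chosen for a small p-value in these same libraries, so passing is no second test of the rises. The replicate number as a block left the count at 6 and changed no other call at 12 h among the genes named; with each library left out in turn it stayed at 6 (range 6 to 6). With stricter thresholds on the authors' table (adjusted p under 0.01, log2 fold change of 1.5 or more in size) 6 members remained at 12 h and 0 in each time table. Of the 892 genes listed as higher at 12 h, 597 remained.

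The scaling mattered most for sizes. Setting all libraries to equal medians over the listed genes moved the median log2 difference from 1.350 to 0.55, a shift of -0.80 that the choice of listed genes partly builds in, and lowered the share of higher among limma calls from 68.9% to 51.8%. Under it the log2 differences were 2.73 for Parp12, 2.14 for Parp11, 2.11 for Parp14, 2.004 for Parp10, 1.47 for Parp9 and 0.87 for Parp3, and Zc3hav1 (0.43, adjusted p = 0.529) and Nampt (0.57, adjusted p = 0.0951) no longer passed limma. Differences between members are unaffected by scaling within a library. With a library left out, Parp12 ranged from 3.42 to 3.71, Parp14 from 2.73 to 3.09 and Parp3 from 1.57 to 1.73. The interaction of IFNβ and time was not run, because no member is in both time tables. Depth is unknown, so the precision of low values such as Art3 in controls cannot be stated.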
